A study of Homo sapiens with 10 samples.

Results

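Replication-dependent histone genes were followed in human lung adenocarcinoma cells with and without APEX1, the gene of the base excision repair enzyme APE1. The members were all symbols present in both deposited count tables that match H1-1 to H1-5, or H2AC, H2BC, H3C or H4C followed by a number, with at least 10 counts in at least 1 library. Of 28281 symbols 65 matched, and 36 of these were members, namely 2 of 5 H1, 10 of 16 H2A, 10 of 17 H2B, 7 of 13 H3 and 7 of 14 H4 symbols. The other 29 stayed under 10 counts in every library, and 4 of them had no count at all. At the edge of the rule, H3C1, H3C3, H2BC6, H4C11 and H3C12 reached 10 counts, while H3C13, H4C14, H4C15, H2AC12 and H2AC16 reached 9. H2AC18 and H2AC19, a near-identical pair, had the same count in all 10 libraries and are 1 measurement under 2 names. A further 2 symbols with a letter after the number were left out.

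The groups were H1944 with an APEX1 knockout (KO, 2 libraries), H1944 wild type (WT, 2 libraries), A549 with an APEX1 knockout (3 libraries) and A549 wild type (3 libraries). Both are established lung adenocarcinoma lines, grown with 10% serum, H1944 in RPMI1640 and A549 in DMEM, and no group had a further treatment in the labels. How the knockouts were made, whether a KO group is 1 clone or several, and whether libraries of 1 group came from separate cultures are not given in the sources used here, so p-values measure only the spread between these libraries. The genotype of 3 A549 columns, headed 16, 65 and 66, is not in their names. The A549 knockout samples in the labels had no other columns, so these 3 were read as that group, and they are called KO 16, KO 65 and KO 66.

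Replication-dependent histone genes supply the bulk of nucleosomal histones while DNA is copied in S phase. Their pre-mRNAs have no introns and end at a stem-loop bound by the protein SLBP, followed by cleavage guided by the U7 small nuclear RNA, so the usual message has no poly(A) tail. Some of these genes also give longer, polyadenylated transcripts that run past the stem-loop, known from differentiated or non-dividing cells. Most of the genes lie in a large cluster on chromosome 6, and H2A and H2B genes often start head to head from a shared promoter, in which H2B promoters carry an octamer bound by POU2F1 (OCT1). The libraries were selected with oligo(dT), and in counts per gene the tailed and the untailed message of a histone gene cannot be told apart.

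The stem-loop was read from GENCODE v29 transcripts on GRCh38, where 32 of the 36 members had a transcript and 18 of these held a match of 16 bases. The stem-loops of members with the results below are shown with 5 flanking bases on each side, in lower case, and the 16 bases of the stem-loop in capitals, because this element separates the tail-less message from a longer one. They lie on the minus strand at chr6:26123472-26123487 (H2BC4), on the plus strand at chr6:26158587-26158602 (H2BC5) and at chr6:26124669-26124684 (H2AC6), on the minus strand at chr1:149886188-149886203 (H2BC21), on the plus strand at chr6:26225596-26225611 (H3C6) and on the minus strand at chr6:26285131-26285146 (H4C8).
H2BC4: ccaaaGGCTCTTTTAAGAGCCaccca
H2BC5: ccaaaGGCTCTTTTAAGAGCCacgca
H2AC6: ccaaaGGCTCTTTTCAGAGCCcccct
H2BC21: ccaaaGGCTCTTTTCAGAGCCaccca
H3C6: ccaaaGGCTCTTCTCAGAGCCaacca
H4C8: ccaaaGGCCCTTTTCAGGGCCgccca

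The element of H2AC6 and H2BC21 was the commonest, found in 10 members, and H2BC4 and H2BC5 were the 2 members with the loop variant that both show. H4C8 shared its element with H4C5 and H4C11. The models of H1-2 and H2BC12 held no match.

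Promoters were read from the RefSeq promoter table on GRCh38.p14, which covers 250 bases before to 50 after each gene start and had an entry for 34 of the 36 members (not H3C12 or H4C3). The octamer ATTTGCAT, searched on both strands, occurred in 15 of these 34 promoters (44.1%), against 1.77% of all 35116 promoters in the table. It was in 8 of 10 H2B, 6 of 10 H2A and 1 of 6 H3 promoters, and in 0 of 6 H4 and 0 of 2 H1 promoters. The H3 gene, H3C4, has the same RefSeq start as H2AC7 on the same strand, so 1 octamer is counted for both genes. The CCAAT box, the letters CCAAT on either strand, occurred in 29 of 34 (85.3%), against 34.6% of all promoters. Below are the promoter of H2BC4 (minus strand, chr6:26123877-26124176), which overlaps that of H2AC6 by 255 bases, the promoter of H2BC21 (minus strand, chr1:149886633-149886932), which overlaps that of H2AC20 by 265 bases, and the promoter of H2BC5 (plus strand, chr6:26157871-26158170), which holds no octamer. Capitals mark the octamer.
H2BC4: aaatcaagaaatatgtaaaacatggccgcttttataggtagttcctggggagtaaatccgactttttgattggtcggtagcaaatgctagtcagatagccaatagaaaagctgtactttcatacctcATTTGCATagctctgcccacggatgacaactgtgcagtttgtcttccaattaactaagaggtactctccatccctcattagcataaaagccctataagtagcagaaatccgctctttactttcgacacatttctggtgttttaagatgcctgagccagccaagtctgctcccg
H2BC21: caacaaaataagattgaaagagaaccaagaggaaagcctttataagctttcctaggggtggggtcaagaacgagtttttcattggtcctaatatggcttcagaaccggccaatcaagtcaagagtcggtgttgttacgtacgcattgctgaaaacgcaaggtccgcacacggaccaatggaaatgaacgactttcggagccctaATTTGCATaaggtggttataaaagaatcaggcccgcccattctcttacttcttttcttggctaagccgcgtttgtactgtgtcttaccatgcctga
H2BC5: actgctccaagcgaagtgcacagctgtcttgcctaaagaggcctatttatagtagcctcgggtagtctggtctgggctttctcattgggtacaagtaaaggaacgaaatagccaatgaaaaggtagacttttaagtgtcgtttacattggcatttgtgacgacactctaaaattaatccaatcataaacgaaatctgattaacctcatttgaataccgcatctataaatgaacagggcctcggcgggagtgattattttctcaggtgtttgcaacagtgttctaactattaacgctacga

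Library totals ran between 18314224 and 30219850 counts. APEX1 itself had 87.0 and 87.5 CPM (a gene's counts scaled to the library's total, with edgeR's TMM within each line) in H1944 KO, against 244 and 243 CPM in H1944 WT. In A549 it had 60.0, 62.9 and 108 CPM in KO 16, KO 65 and KO 66, against 167, 254 and 237 CPM in WT 1, WT 2 and WT 3, so transcript remained in every KO library. Of 9 epithelial and lung markers, KRT8 and KRT18 took most of the counts in both lines, and NKX2-1, which marks lung lineage, had at most 3 counts in any library. In H1944 some of these markers had higher and others lower values in KO than in WT. KRT8 had 9812 and 9672 CPM in KO, against 5606 and 5477 CPM in WT, and KRT18 had 8059 and 7803 CPM in KO, against 4041 and 4020 CPM in WT. The epithelial adhesion gene EPCAM had 32 and 23 counts in KO libraries, against 1615 and 1444 in WT libraries. The E-cadherin gene CDH1 had 222 and 245 counts in KO, against 4770 and 4418 in WT. The A549 libraries fell into 2 sets across genotype: KO 65 and WT 1 held reads of the 28S gene RNA28SN4 and under 0.4% ribosomal RNA, and KO 16, KO 66, WT 2 and WT 3 held none of these reads and between 6.45% and 14.2% ribosomal RNA.

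In H1944, histone messages were more abundant in KO than in WT, and most of that rise came from 6 genes. The 36 members together held 252 and 253 CPM in KO, against 81.9 and 82.4 CPM in WT, a ratio of 3.08. Libraries of 1 group differed by less than 2 CPM, far less than the groups did. The 6 genes known to give polyadenylated forms as well, H2BC12, H1-2, H2BC5, H2BC21, H2AC6 and H2BC4, held between 82.0% and 92.3% of the member counts in every library of the series. Their sum was 233 CPM in each KO library, against 70.7 and 68.9 CPM in WT, a ratio of 3.34. In bulk RNA, a change in the share of cells that make a message and a change in message per cell cannot be told apart.

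Each of the 6 genes rose in H1944. H2BC12, which encodes a core histone H2B and took more counts than any other member in each library, had 124 and 118 CPM in KO, against 37.7 and 35.2 CPM in WT. Its log2 fold change was 1.73 ± 0.05 (SE; edgeR quasi-likelihood test, adjusted p 7.58e-18). H1-2, which encodes a linker histone that binds the DNA entering and leaving the nucleosome, had 38.9 and 44.6 CPM in KO, against 14.9 and 13.1 CPM in WT. Both KO libraries stood well above both WT libraries for either gene, and H1-2 rose by 1.58 ± 0.09 on the log2 scale (SE; edgeR adjusted p 9.08e-13).

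The other H2B genes among the 6 include the pair of largest changes. H2BC5 had 25.5 and 24.3 CPM in KO, against 4.96 and 7.05 CPM in WT, a log2 fold change of 2.05 ± 0.13 (SE; edgeR adjusted p 1.03e-11). H2BC4 had 9.22 and 8.14 CPM in KO, against 1.81 and 1.67 CPM in WT, a log2 fold change of 2.31 ± 0.19 (SE; edgeR adjusted p 5.18e-10), or 4.97-fold. These are the 2 members with the loop variant shown above. H2BC21, the chromosome 1 member of the 6, had 20.1 and 19.9 CPM in KO, against 6.90 and 6.34 CPM in WT, and rose by 1.59 ± 0.11 (SE; edgeR adjusted p 3.69e-11). H2AC6, which encodes a core histone H2A and starts head to head with H2BC4, had 15.7 and 18.4 CPM in KO, against 4.47 and 5.67 CPM in WT, and rose by 1.75 ± 0.14 (SE; edgeR adjusted p 2.83e-10). No library of 1 group reached the range of the other for any of the 6. The share of all genes with libraries apart in H1944 was not counted, so this adds nothing to the test.

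**Figure D1:**
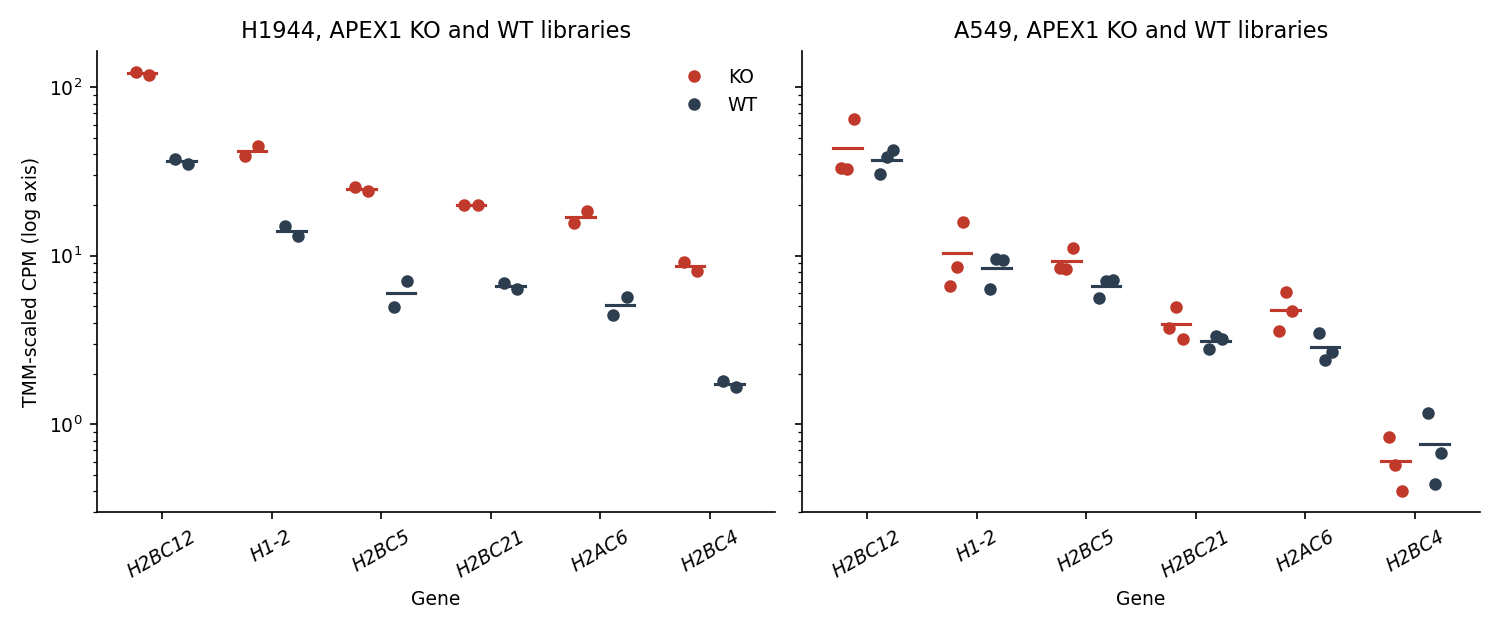
TMM-scaled CPM (log axis) of the 6 members with known polyadenylated forms, 1 point per library and a bar at each group mean, KO in red and WT in dark, with H1944 in the left panel and A549 in the right panel. In H1944 the KO libraries lie above the WT libraries for all 6 genes (for H2BC12, 124 and 118 CPM in KO against 37.7 and 35.2 CPM in WT), and in A549 the libraries overlap except for H2BC5 and H2AC6.

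Of the 36 members 24 had enough counts to be tested in H1944, and 12 were higher in KO and 0 lower at an edgeR adjusted p under 0.05. Over all 16626 genes tested, 33.2% were higher and 33.9% lower, so a change in this line is common. Of the 24 tested, 10 passed and were at least 2-fold higher, against 10.1% of all genes tested. The median log2 fold change of the 24 was 1.15, against -0.01 over all genes. That median is the value of H2AC18 and H2AC19, 1 measurement counted under both names, which did not pass (edgeR adjusted p 0.129). The filter can pass a gene through its KO counts alone: 14 of the 24 had 10 or more counts in both WT libraries, and so did 9 of the 12 that rose. The other 3, H2BC11, H3C6 and H2BC15, had under 10 counts in at least 1 WT library. At an unadjusted edgeR p under 0.05 there were 14 of the 24 members, against 11581 of the 16626 genes, in either direction. H2AC8 was the further higher member and H2BC9 the 1 lower. DESeq2 called 9 members higher and 0 lower, and over all genes 4591 higher and 4722 lower. The 12 members not tested had at most 14 counts in any H1944 library. Without WT 1, 7 members passed (the 6 genes above and H4C8), and in a fit that shares its estimate of spread with A549 also 7 (the 6 genes above and H2BC15).

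By histone family, 7 of 9 tested H2B genes, 1 of 7 H2A, 2 of 4 H3, 1 of 3 H4 and 1 of 1 H1 genes rose. Over all genes tested, 33.2% were higher, and the families are small and were not tested against that share. H2AC18 and H2AC19, 1 measurement, both count among the H2A genes. H2BC11, H2BC15 and H3C6, which rose, had few counts in WT as given above. Outside the 6, H4C8, a core histone H4 gene, had 4.08 and 4.36 CPM in KO, against 1.15 and 2.14 CPM in WT (log2 fold change 1.36 ± 0.26 SE, edgeR adjusted p 1.11e-04). H2BC15 had 1.02 and 1.27 CPM in KO, against 0.266 and 0.476 CPM in WT (log2 fold change 1.63 ± 0.46 SE, edgeR adjusted p 0.00374). H3C6 had 1.30 and 1.84 CPM in KO, against 0.398 and 0.858 CPM in WT (log2 fold change 1.33 ± 0.40 SE, edgeR adjusted p 0.00630). H2BC15 and H3C6 stood below each of the 6 in every H1944 library. H4C8 stood near H2BC4, the lowest of the 6, in WT (1.81 and 1.67 CPM for H2BC4). In KO it lay below H2BC4 (9.22 and 8.14 CPM). H2BC11 had 0.845 and 1.14 CPM in KO, against 0.0885 and 0.572 CPM in WT, where the counts were 2 and 12 (log2 fold change 1.61 ± 0.56 SE, edgeR adjusted p 0.0160). H3C10 and H2BC8, with log2 fold changes of 0.90 ± 0.34 and 0.88 ± 0.36, passed narrowly (edgeR adjusted p 0.0253 and 0.0338). DESeq2 did not call H3C10, H2BC11 or H2BC8, with adjusted p of 0.133, 0.0869 and 0.160.

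The other 12 tested members did not pass, and their intervals are wide. H2AC20 had 0.458 and 0.302 CPM in KO, against 0.487 and 0.238 CPM in WT, with a log2 fold change of 0.05 and a 95% interval between -1.13 and 1.22. H2BC9 had 10 and 5 counts in KO, against 18 and 10 in WT, a log2 fold change of -1.30 ± 0.58 (SE; edgeR adjusted p 0.0532), the lowest value among the members. It passed as lower with library totals alone (-1.34, edgeR adjusted p 0.0454), the 1 setting of those run in which any member was lower. H3C4, H4C12 and H3C2, core histone genes of families H3 and H4, also had values under 0, at -0.46, -0.60 and -0.27, none past the threshold. H2BC18 and the H2AC18 and H2AC19 measurement had 1.20 and 1.15, also not past it.

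**Figure D2:**
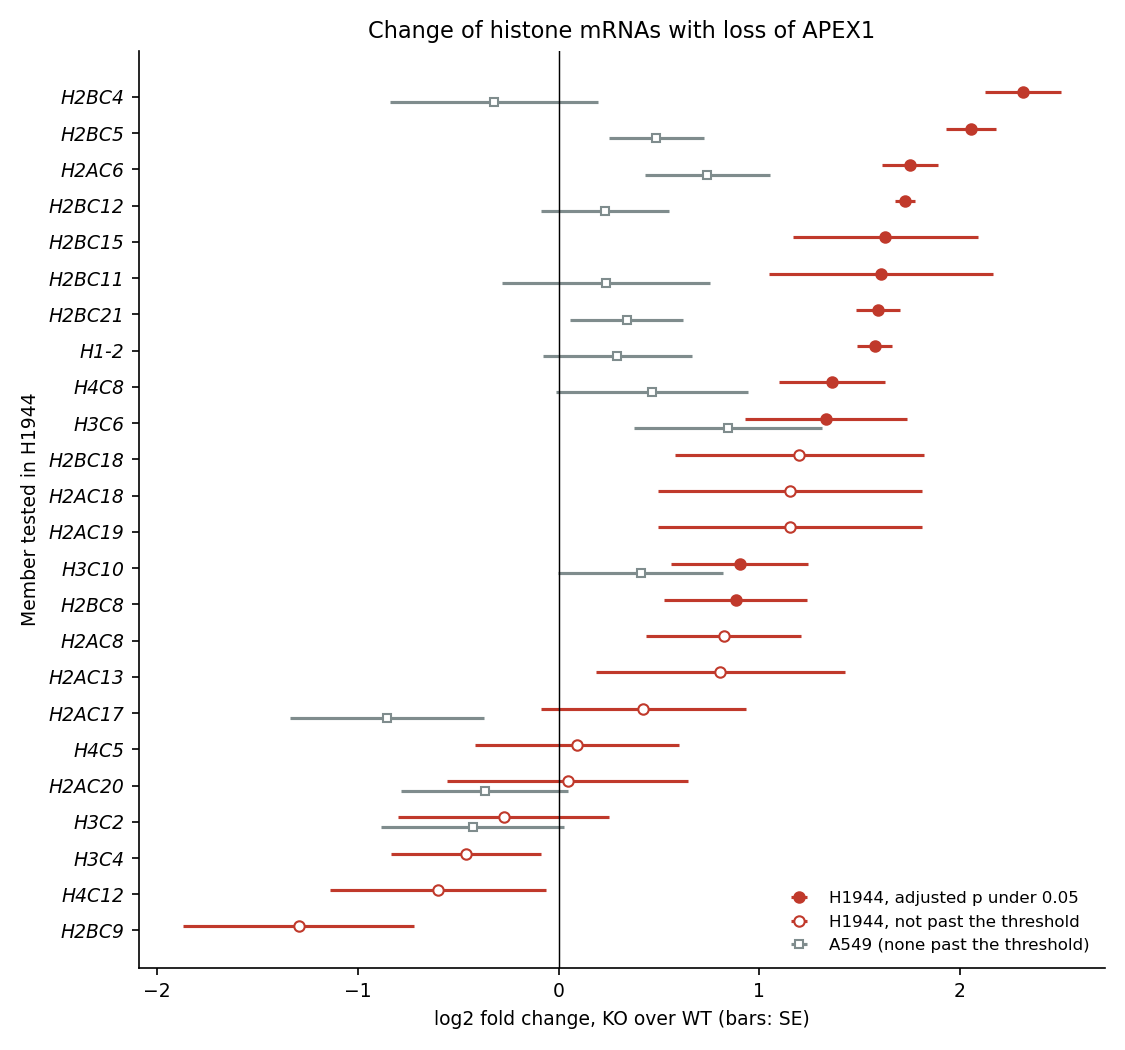
Log2 fold change of KO over WT for the 24 members tested in H1944, with bars for the SE, red filled circles for members past an edgeR adjusted p of 0.05, red open circles for those not past it, and grey squares for the same gene in A549 where it was tested. The 12 filled circles lie between 0.88 and 2.31, and the A549 values lie between -0.86 and 0.84 with none past the threshold.

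Head-to-head genes did not always pass the test together. Among the 65 matching symbols, 12 pairs started on opposite strands within 500 bases, and 5 pairs had both genes among the members. H3C4 and H2AC7 share a start, so H2BC7 is counted with each of them at the same position. H2BC4 and H2AC6, whose starts lie 245 bases apart, both rose, and this was the only 1 of the 3 pairs tested on both sides in which both genes passed. H2BC21 and H2AC20 lie 235 bases apart, with 571 and 593 counts of H2BC21 in KO against 156 and 133 in WT, and 13 and 9 counts of H2AC20 in KO against 11 and 5 in WT. The third pair, H2BC8 and H2AC8, had log2 fold changes of 0.88 and 0.82, the first past the threshold and the second not (edgeR adjusted p 0.0338 and 0.0666); the difference between the partners was not tested. H2BC11 and H2BC15 each rose beside a partner, H2AC11 and H2AC15, with too few counts to test. H2BC12, with 3511 and 3519 counts in H1944 KO against 851 and 738 in H1944 WT, starts 247 bases from H2AC12, which had 0 and 1 counts in KO against 0 and 0 in WT.

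**Figure D3:**
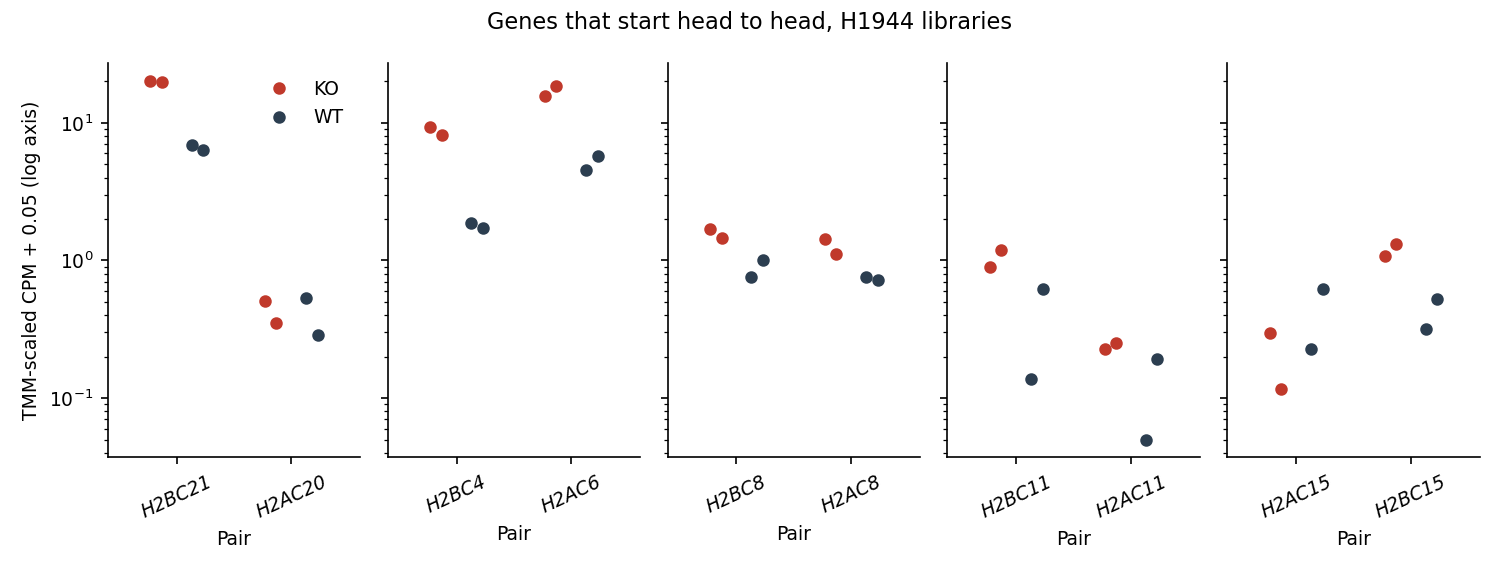
TMM-scaled CPM plus 0.05 (log axis) in the H1944 libraries for the 5 head-to-head pairs whose genes are both members, 1 point per library, KO in red and WT in dark. H2BC4 and H2AC6 are both higher in KO, whereas H2BC21 is higher in KO beside an H2AC20 with 0.458 and 0.302 CPM in KO against 0.487 and 0.238 CPM in WT.

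Members with and without the octamer were counted by their result in H1944, and the difference was not tested. Partners with overlapping promoters, such as H2BC21 and H2AC20, share 1 octamer and are counted apart, so these counts are not of separate promoters. Of the tested members with a promoter entry, 6 of 12 with the octamer rose (H2AC6, H2BC11, H2BC12, H2BC21, H2BC4 and H2BC8), and 6 of 12 without it rose (H1-2, H2BC15, H2BC5, H3C10, H3C6 and H4C8). By annotation, 14 members had a GENCODE transcript that ran at least 100 bases past the stem-loop, and 8 of the 11 tested rose, with a median log2 fold change of 1.33. In 4 members each transcript that holds the stem-loop ended within 100 bases of it, and 1 of the 3 tested rose, namely H2BC5, which also has a longer GENCODE transcript of 789 bases with no stem-loop. Of 14 members with no stem-loop in the model, 3 of 7 tested rose, and of 4 with no GENCODE transcript 0 of 3. Over all genes 33.2% were higher, these counts are small, and the difference between the classes was not tested. Some models hold the coding part only, so the absence of a stem-loop there says nothing of the message. Counts per gene do not show whether reads lay past the stem-loop. H2BC12 overlaps H4C9, H3C4 overlaps H2AC7, H2BC18 overlaps FCGR1A, and H2BC5 overlaps H2BC6-AS1 and LARP1P1 in RefSeq. Strand use in counting is not given in the sources used here, so reads of these genes may be shared or lost. On GRCh38.p14, 31 members lie at chr6:26020451-27893185 and 5 at chr1:149782689-149887411.

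In A549 no member passed, in a line where almost no gene did. Of 15 members tested, 0 were higher and 0 lower by edgeR, against 0.00633% of 15806 genes higher (1 gene) and 0% lower, and DESeq2 also called 0 members. At an unadjusted edgeR p under 0.05 there were 895 genes and 1 member, H2AC6. The spread between libraries (biological coefficient of variation) was 39.0% in A549, against 4.74% in H1944. The members together held 67.5, 69.3 and 113 CPM in KO 16, KO 65 and KO 66, against 60.7, 73.6 and 75.8 CPM in WT 1, WT 2 and WT 3, a ratio of 1.19. KO 66 was the high library, and the other 2 KO libraries lay within the WT range. The remaining members had too few counts to be tested.

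H2AC6, H2BC5 and H2AC17 were the 3 tested members whose KO and WT libraries did not overlap in A549. H2AC6 had 3.56, 6.08 and 4.70 CPM in KO 16, KO 65 and KO 66, against 3.49, 2.42 and 2.67 CPM in WT 1, WT 2 and WT 3. Its log2 fold change was 0.74 ± 0.31 (SE; edgeR adjusted p 0.877), and every KO library lay above every WT library, KO 16 only just. H2BC5 had 8.44, 8.30 and 11.05 CPM in KO, against 5.58, 7.04 and 7.20 CPM in WT, with 0.49 ± 0.24 (SE; edgeR adjusted p 0.939). All KO libraries were again above all WT libraries. H2AC17 had 0.516, 0.266 and 0.621 CPM in KO, against 0.679, 1.19 and 0.679 CPM in WT, with every KO library below every WT library (-0.86 ± 0.48, edgeR adjusted p 0.995). Thus 2 of 15 tested members lay apart as higher and 1 as lower, against 6.11% and 4.6% of all genes. An exact two-sided permutation test gave 0.1 for each of these 3 genes, the smallest p that 3 against 3 libraries allow. Libraries that lie fully apart give this p by construction, so the test adds nothing to the choice of these genes.

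Within the library sets the values of H2AC6 were 0.78 (KO 65 against WT 1), 0.47 (KO 16 against WT 2 and WT 3) and 0.87 (KO 66 against the same WT libraries). For H2BC5 they were 0.57, 0.24 and 0.63 in the same order, so both genes had a positive value in each. H2BC12 had 33.0, 32.7 and 65.01 CPM in KO 16, KO 65 and KO 66, against 30.4, 38.5 and 42.4 CPM in WT 1, WT 2 and WT 3, with only KO 66 outside the WT range. It gave 0.10, -0.29 and 0.69 within the sets, and H1-2 gave 0.42, -0.50 and 0.73. H1-2 had 6.66, 8.52 and 15.8 CPM in KO 16, KO 65 and KO 66, against 6.35, 9.51 and 9.37 CPM in WT 1, WT 2 and WT 3, again with only KO 66 outside the WT range. Without KO 66 the fitted log2 fold changes of these genes were -0.19 and -0.16, against 0.23 and 0.29 with all libraries. H2BC4 had 0.844, 0.577 and 0.399 CPM in KO 16, KO 65 and KO 66, against 1.16, 0.440 and 0.679 CPM in WT 1, WT 2 and WT 3, so the groups overlapped at between 9 and 24 counts. It gave -0.92, 0.55 and -0.39 within the sets, and its fitted value of -0.32 ± 0.52 (SE) became 0.11 without WT 1. H2BC21, at 0.34 ± 0.28 (SE), had 3.70, 4.97 and 3.19 CPM in KO 16, KO 65 and KO 66, against 2.81, 3.34 and 3.21 CPM in WT 1, WT 2 and WT 3, with KO 66 inside the WT range.

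The difference between lines, the A549 change minus the H1944 change from a fit of all 10 libraries, passed for 2 of 26 members tested, with 2 lower in A549 than in H1944 and 0 higher (8 lower and 0 higher at an unadjusted edgeR p under 0.05, 4 lower and 0 higher by DESeq2). Over all 17677 genes 2.85% passed as lower and 4.1% as higher, and 3863 had an unadjusted edgeR p under 0.05 in either direction. H2BC4 had a difference of -2.66 ± 0.59 (SE; edgeR adjusted p 0.0290), from a log2 fold change of -0.32 in A549 and 2.31 in H1944. H2BC5 had -1.59 ± 0.34 (SE; edgeR adjusted p 0.0268), from 0.49 in A549 and 2.05 in H1944. H2BC21 and H2BC12, at -1.28 and -1.52, did not pass (edgeR adjusted p 0.0570 and 0.0768), nor did H1-2 and H2AC6, at -1.31 and -1.02 (edgeR adjusted p 0.174 and 0.177). The 2 calls were lost in some fits that left out 1 library: without A549 WT 3 neither passed. They also did not hold without any 1 of the 4 H1944 libraries, where 1 library was left in that group. Over all left-out libraries the edgeR adjusted p ran between 0.0252 and 0.147 for H2BC4 and between 0.0114 and 0.151 for H2BC5. H2BC4 was also lost without KO 65 (adjusted p 0.0527) and H2BC5 without A549 WT 2 (adjusted p 0.0698). The direction was the same in each case, with differences between -2.94 and -2.25 for H2BC4 and between -1.87 and -1.36 for H2BC5.

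Ribosomal RNA and other RNAs that carry no poly(A) tail were read beside the histone messages, as a rough measure of untailed RNA in each library. The measure holds only where reads were assigned to genes alike, which is not given in the sources used here. In H1944, ribosomal RNA genes took 0.308% and 0.316% of counts in KO, against 0.139% and 0.231% in WT, a ratio of 1.68. A list of 27 other untailed RNAs summed to 90.3 and 83.8 CPM in KO, against 53.5 and 54.0 CPM in WT, a ratio of 1.62. The 30 members outside the 6 summed to 19.5 and 20.3 CPM in KO, against 11.2 and 13.4 CPM in WT, also a ratio of 1.62, while the 6 had 3.34. The higher sum of the untailed RNAs rests on RN7SL1 and RN7SL2. Without this pair, left out after the values were seen, the other 25 summed to 30.2 and 28.9 CPM in KO, against 32.0 and 35.8 CPM in WT, a ratio of 0.871. The part of untailed RNA in the histone values was not tested.

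In A549 the ribosomal RNA and the summed untailed RNAs differed by library set. Ribosomal RNA took 14.2%, 0.337% and 7.19% in KO 16, KO 65 and KO 66, against 0.284%, 6.45% and 6.46% in WT 1, WT 2 and WT 3. The 27 untailed RNAs held 437, 50.2 and 258 CPM in KO 16, KO 65 and KO 66, against 37.5, 305 and 267 CPM in WT 1, WT 2 and WT 3. The sets were drawn by whether reads of RNA28SN4 were present, so only the split of that gene is by definition. The percentage of ribosomal RNA, a related measure, was high in the set without those reads. The untailed sum, not used to draw the sets, also split by set and not by genotype. RNA18SN1 had 8.56 and 15.5 CPM in KO 65 and WT 1, against 7911, 3390, 2958 and 3036 CPM in KO 16, KO 66, WT 2 and WT 3. The chaperone gene DAXX had 17 and 18 counts, against 1028, 1210, 1311 and 1274, in the same order. Whether reads were assigned to genes alike in both sets was not tested. The 30 members outside the 6 held 11.2, 8.25 and 13.05 CPM in KO 16, KO 65 and KO 66, against 10.9, 12.4 and 10.2 CPM in WT 1, WT 2 and WT 3. The wide range of the untailed sum also rests on RN7SL1 and RN7SL2. Without them the other 25 held 26.5, 17.9 and 30.4 CPM in KO 16, KO 65 and KO 66, against 22.0, 25.7 and 27.9 CPM in WT 1, WT 2 and WT 3, still lowest in KO 65 and WT 1.

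**Figure D4:**
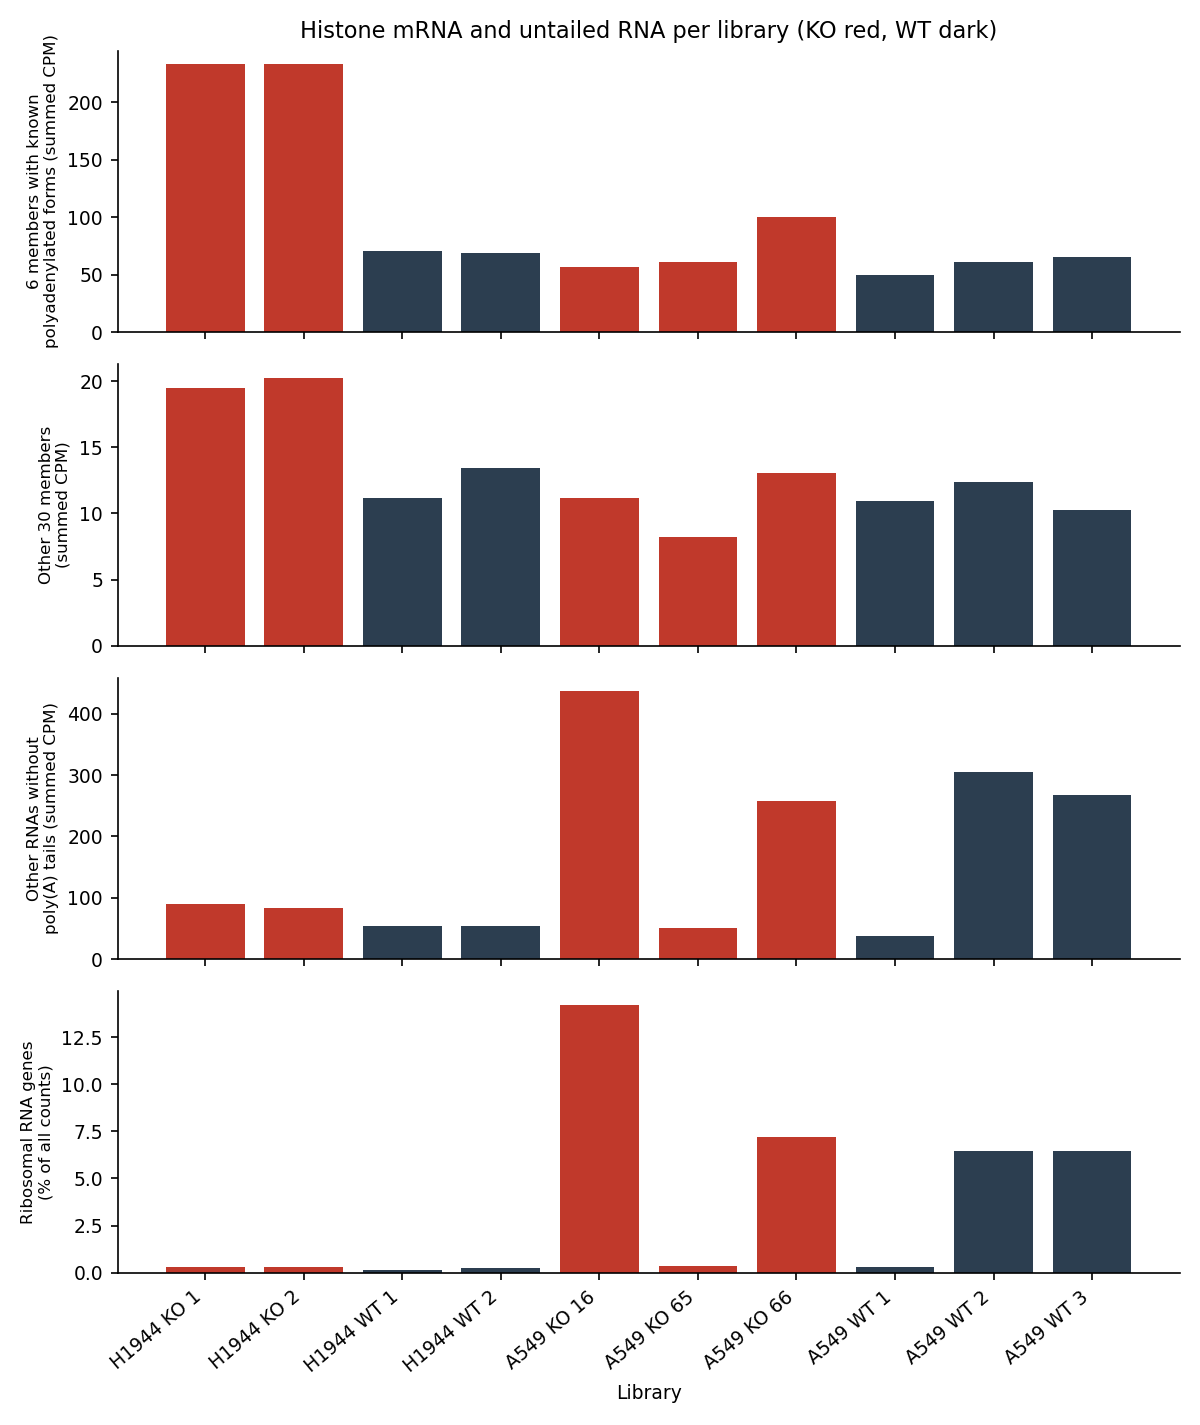
Summed TMM-scaled CPM of the 6 members with known polyadenylated forms, of the other 30 members and of 27 other untailed RNAs, and the percentage of counts on ribosomal RNA genes, as bars per library, KO in red and WT in dark. The 6 members stand at 233 CPM in both H1944 KO libraries against 70.7 and 68.9 CPM in H1944 WT, whereas ribosomal RNA and the untailed sum, which RN7SL1 and RN7SL2 dominate there, are high in 4 A549 libraries of both genotypes.

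Genes that work with the histone genes were counted in H1944 beside the 33.2% of all genes that were higher and the 33.9% that were lower. Of 24 S phase genes, which act in origin licensing, DNA synthesis and nucleotide supply, 0 were higher and 23 lower in KO, with a median log2 fold change of -0.69. MCM4 and MCM7, subunits of the replicative helicase, fell to 218 ± 2.84 and 130 ± 4.59 CPM in KO, against 473 ± 6.47 and 280 ± 2.27 CPM in WT (SD, n = 2 each; edgeR adjusted p 1.29e-17 and 1.13e-16). CCNA2, the S phase cyclin, and RRM2, a ribonucleotide reductase subunit, fell by 0.96 and 0.87 on the log2 scale. The replication histones are transcribed in the same phase, and the 12 members that passed were all higher.

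Histone chaperones, which carry histones to DNA, were mostly lower: 13 of 16 fell and 1 rose, with a median of -0.23. ASF1B, a chaperone of H3 and H4, fell to 14.7 ± 0.85 CPM in KO, against 31.0 ± 0.10 CPM in WT (SD, n = 2 each; edgeR adjusted p 1.67e-10), and ASF1A, CHAF1B and ATRX fell by 0.51, 0.61 and 0.46 on the log2 scale. Of 20 transcription and processing factors of histone messages, 5 rose (25%) and 10 fell (50%), with a median of -0.12, and these shares were not tested against those of all genes. POU2F1, the octamer factor, fell by 0.87, CASP8AP2, which helps to cut the pre-mRNA, by 0.89, SRRT, a cap-complex partner needed for histone message 3' ends, by 0.51, and CCNE2, a cyclin of the G1 to S transition, by 1.06. SLBP, which binds the stem-loop, had 85.1 and 87.3 CPM in KO, against 85.0 and 86.1 CPM in WT, with a log2 fold change of 0.01 ± 0.04 (SE; edgeR adjusted p 0.845).

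Replication-independent histones, whose messages are polyadenylated and made outside S phase too, split by gene. Of 10 tested, 4 rose (40%) and 6 fell (60%), with a median of -0.24. H2AZ1, which encodes the variant H2A.Z, had 221 and 216 CPM in KO, against 584 and 626 CPM in WT, a fall of 1.47 on the log2 scale (edgeR adjusted p 6.48e-19). H2AZ2 and H3-3A, which encode a second H2A.Z and the variant H3.3, fell by 0.79 and 0.63. H3-3B, which also encodes H3.3, had 372 and 374 CPM in KO, against 266 and 274 CPM in WT, and rose by 0.47 ± 0.03 (SE; edgeR adjusted p 5.89e-11). Of the pair of H3.3 genes, H3-3B was thus higher in KO and H3-3A lower.

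Among the untailed RNAs, 12 of 27 were tested in H1944, 3 rose and 2 fell, with a median of -0.01. RN7SL1 and RN7SL2, RNAs of the signal recognition particle, rose by 1.51 and 1.55, and SNORD3A, the U3 small nucleolar RNA, by 1.04, while SNORD17 fell by 1.26. RNU7-1, the U7 RNA that guides the cut after the stem-loop, fell by 0.46 ± 0.17 (SE; edgeR adjusted p 0.0235). The higher sum of this list in KO thus came mainly from the pair of RN7SL genes, which had 26.2 ± 1.86 and 31.3 ± 1.84 CPM in KO, against 9.20 ± 0.82 and 10.6 ± 1.49 CPM in WT (SD, n = 2 each). In A549 no gene of any of these 5 lists passed in edgeR or DESeq2, with 1 replication-independent histone and 1 S phase gene lower and 1 processing factor higher at an unadjusted edgeR p under 0.05, and with medians of -0.18 for S phase genes, -0.14 for chaperones, -0.01 for processing factors, -0.14 for replication-independent histones and 0.18 for untailed RNAs. Beside these results in H1944, the 9 epithelial markers summed to between 17491 and 17889 CPM in KO, against between 9789 and 9946 CPM in WT. That sum is nearly all KRT8 and KRT18, which were higher in KO, while EPCAM, CDH1 and NAPSA were lower. NAPSA had 0.915 and 0.804 CPM in KO, against 10.6 and 7.62 CPM in WT. The 4 leukocyte markers, nearly all CD68, which epithelial lines also express, summed to between 55.0 and 57.2 CPM in KO, against between 30.1 and 31.3 CPM in WT, with CD3E at 0 in all libraries. The 4 fibroblast markers summed to between 8.24 and 9.88 CPM in KO, against between 10.4 and 11.3 CPM in WT, the 3 endothelial markers had at most 2.44 CPM in any library, and the part of any of these in the histone results was not tested.

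**Figure D5:**
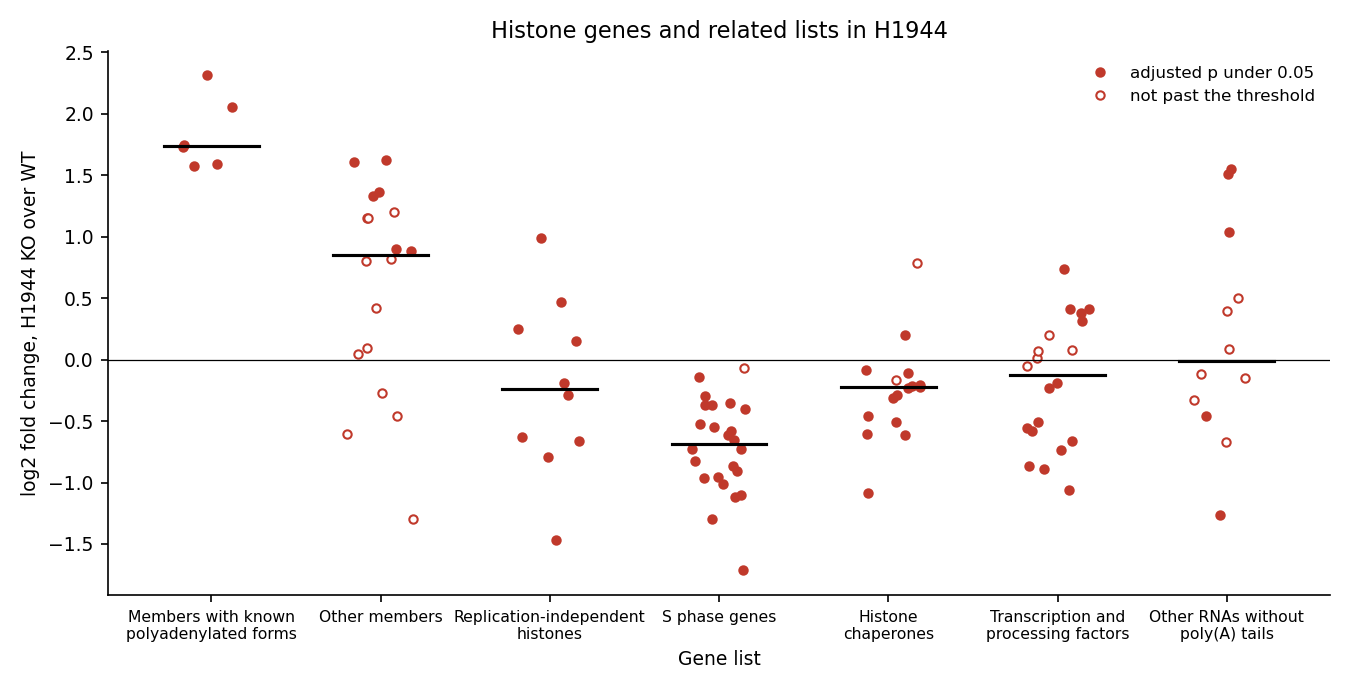
Log2 fold change of H1944 KO over WT for each tested gene of 7 lists, filled where the edgeR adjusted p is under 0.05 and open where it is not, with a bar at each list's median and sideways scatter for display only. The 6 members with known polyadenylated forms lie between 1.58 and 2.31, and the S phase genes lie at or below -0.07.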

How the data were processed

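Poly(A) RNA of 10 libraries was sequenced, per the labels, after oligo(dT) selection with random priming. Each line had 1 deposited table, with a raw count for every gene symbol and library, not scaled by the authors. The submitters' processing notes name Trim Galore 0.5.0, HISAT2 2.1.0, featureCounts 1.6.4, DESeq2 and hg38; annotation, strand and how multiply aligned reads were handled are not given in the sources used here, so near-identical histone genes may lose or share reads. From the counts, edgeR 4.0.16 (limma 3.58.1, R 4.3.3) fitted each line on its own with filterByExpr (minimum count 10), TMM scaling and a robust quasi-likelihood test, with Benjamini-Hochberg adjusted p-values over all genes tested and a threshold of 0.05. The difference between lines came from 1 fit of all 10 libraries. CPM were scaled by TMM within each line, and values within A549 sets are log2 CPM with a prior of 2 counts. DESeq2 1.42.0, other scalings, no filter, the replicate block, a block for the library set and left-out libraries were alternatives. The script was tested on simulated data. Named genes were the 3 marker genes, the 12 members of highest mean CPM, the 8 largest rises in H1944, members past a threshold or with libraries apart in A549 or between lines, APEX1 and up to 4 genes of smallest adjusted p per list. SLBP, RNU7-1, H2BC8, H2BC9, H2BC18, H3C4, H4C12, H2AC8, H2AC18, H2AC19, the partners in head-to-head pairs, EPCAM, CDH1 and NAPSA were named after their values were seen. From the list of replication-independent histones 1 gene is not reported here and is left out of its counts and medians. Members, lists and tests were chosen with earlier results of these data known. Totals of 18314224 to 30219850 counts leave members with few counts imprecise.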

Additional observations from a re-analysis of the deposited data

Results flagged for a closer look

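For 2 histone genes, H2BC4 and H2BC5, the change with loss of APEX1 differed between the lines in the test of that difference (A549 change minus H1944 change, edgeR, all 10 libraries). H2BC4 differed by -2.66 on the log2 scale (edgeR adjusted p 0.0290) and H2BC5 by -1.59 (edgeR adjusted p 0.0268). Both calls rest on single libraries, as given above, with the same direction whichever library was left out. H2BC4 also did not pass with library totals alone.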

How the results depend on the processing

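The 6 members with known polyadenylated forms passed in H1944 under all 11 alternatives run there, and 12 named genes gave 132 values of which 115 kept their call and 17 lost it. With library totals alone 1 member, H2BC9, was lower. In 1 fit of all 10 libraries 7 members were higher, and over all genes 1177 were higher and 1345 lower. With 10 or more counts asked of every library, 6 members were left and all 6 were higher. These were H2BC21, H1-2, H2AC6, H2BC5, H2BC12 and H3C10, so H2BC4 was not among them. With ribosomal RNA left out of the totals and TMM kept, the H1944 values were the same by construction, since TMM takes up the change of totals, so 12 of the 115 are no test. Chosen after seeing the data, library totals alone gave a log2 ratio of the members' summed level in H1944 of 1.58 (1.62 with TMM), and leaving out RN7SL1 and RN7SL2 turned that of the untailed sum to -0.20 in H1944 and -0.017 in A549. Leaving out 1 H1944 library at a time gave between 7 and 12 members higher (7 without WT 1) and a median log2 fold change between 0.92 and 1.27.

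Over all genes A549 gave 2 higher with no filter, 81 higher and 44 lower with DESeq2, 10 higher and 6 lower in 1 fit of all 10 libraries, 1 lower with the library set as a block, and 0 higher without any 1 library. Signs turned in A549 without KO 66 for H2BC12 (-0.19), H1-2 (-0.16) and H2BC11 (-0.092), and without WT 1 for H2BC4 (0.11) and H2BC11 (-0.041). Over the left-out libraries the A549 log2 fold change ran between -0.63 and 0.11 for H2BC4, -0.19 and 0.40 for H2BC12, -0.16 and 0.53 for H1-2, and -0.092 and 0.57 for H2BC11. For the difference between lines, library totals alone gave 1 member lower and 316 genes lower, DESeq2 gave 4 members (H2BC12 and H2BC21 added), 1262 genes higher and 1056 lower, and the library set as a block gave 5 members, 1520 genes higher and 1239 lower. Leaving out 1 library gave 0 to 4 members lower, 249 to 1606 genes higher and 133 to 1288 lower, with the members' median between -1.25 and -0.89. H3C2, at -0.16, ran between -0.69 and 0.68 there, with 0.016, 0.12, 0.68 and 0.13 without A549 KO 65, A549 WT 1, H1944 KO 2 and H1944 WT 1. The cause was not tested in any of these. A group left with 1 library was assumed to vary like the others.

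Replicate numbers in H1944 did not pair the libraries by the labels (correlation of the deviations across 16626 genes 0.01), and the fit with the replicate block gave 12 members higher and 0 lower, 5568 genes higher and 5657 lower. No paired analysis was possible in A549 because its KO columns carry no matching numbers. Depth limits the 12 members not tested in H1944 and those with few WT counts.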
